A study of Mus musculus with 6 samples.

Results

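The microRNAs miR-139, miR-149, miR-340, miR-455 and miR-674 were followed at 6 d and at 0 h after death in heart muscle (myocardium) of mice. They were taken as every measured row whose name begins with one of these numbers, which gave 10 rows, both arms of 5 precursors, of 984 measured mature miRNAs. Of these rows, mmu-miR-139-5p, mmu-miR-149-5p, mmu-miR-340-3p, mmu-miR-455-3p and mmu-miR-674-3p were picked because they were much lower at 6 d than at 0 h in these libraries. Their own change is therefore a description and carries no test. The other 5 rows are the partner arms, which came in through their names alone.

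Small RNA was sequenced from 3 libraries at a post-mortem interval of 6 d and 3 libraries at 0 h. The labels give the species, the tissue and the interval, while the sources used here do not give strain, age or sex of the mice or how the hearts were kept between death and sampling. Whether each library is a different mouse is not labelled, and p-values therefore reflect the spread among libraries alone, which may be technical.

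A miRNA is cut from a hairpin precursor whose sides yield a 5p and a 3p arm. Usually one arm is loaded into an Argonaute protein and kept, and the other is mostly degraded. The loaded arm finds messenger RNAs mainly through its seed, bases 2 to 8, so the arms of one hairpin have different targets. In the reference annotation of the GRCm38 build, 4 of the 5 hairpins lie in introns of protein-coding genes on the same strand. The hairpin of miR-139 is at chr7:101475376-101475443 in Pde2a, which encodes a cyclic nucleotide phosphodiesterase. That of miR-149 is at chr1:92850378-92850443 in Gpc1, the gene of the heparan sulphate proteoglycan glypican-1. That of miR-340 is at chr11:50069702-50069799 in Rnf130, a RING finger gene, and the mature arms of miR-455 span chr4:63256867-63256924 in Col27a1, a fibrillar collagen gene. The hairpin of miR-674 is at chr2:117185127-117185226, and no protein-coding host gene on its strand was found for it. All 5 are on the plus strand. The mRNAs of the host genes were not measured.

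The mature sequences are shown so that both arms of each precursor can be compared. They are RefSeq sequences of the GRCm38.p6 build, 5′ to 3′, with the seed in capitals.
miR-139-5p: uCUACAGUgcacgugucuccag
miR-139-3p: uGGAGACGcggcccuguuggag
miR-149-5p: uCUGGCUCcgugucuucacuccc
miR-149-3p: gAGGGAGGgacgggggcggugc
miR-340-5p: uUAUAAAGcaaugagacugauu
miR-340-3p: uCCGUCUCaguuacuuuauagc
miR-455-5p: uAUGUGCCuuuggacuacaucg
miR-455-3p: gCAGUCCAcgggcauauacac
miR-674-5p: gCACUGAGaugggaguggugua
miR-674-3p: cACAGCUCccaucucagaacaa
No seed is shared between any of these 10 arms, so they are 10 different targeting sequences and not a family. The hairpins of miR-139, miR-340 and miR-674 are shown because the shares of their arms are compared. Capitals mark the mature arms, the 5p arm first.
Mir139: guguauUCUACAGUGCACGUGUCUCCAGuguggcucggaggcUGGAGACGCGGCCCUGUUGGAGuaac
Mir340: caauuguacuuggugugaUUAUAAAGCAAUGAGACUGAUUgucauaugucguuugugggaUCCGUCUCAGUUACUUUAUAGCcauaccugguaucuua
Mir674: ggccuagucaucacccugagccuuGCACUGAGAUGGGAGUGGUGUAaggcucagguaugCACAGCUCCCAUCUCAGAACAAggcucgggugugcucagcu

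Levels are given as reads and as normalised CPM, that is reads per 1000000 miRNA reads divided by a further factor per library. The authors applied this factor in 5 of the 6 libraries. For 0 h replicate 1, which they deposited as raw counts, a factor of 0.919 was derived here by taking the product of the 6 factors as 1. Normalised levels are used below. These levels are relative to the other miRNAs of a library, and absolute amounts were not measured. The 6 d libraries held 617069 to 1889594 miRNA reads and the 0 h libraries 4468547 to 7906557. A floor of 3 reads corresponds to 1.91 to 3.97 normalised CPM at 6 d and to 0.463 to 0.730 at 0 h. The 5 cardiac muscle markers summed to 113393 to 535915 normalised CPM at 6 d and 256919 to 491616 at 0 h. Nearly all of each sum was miR-1a-3p (110064 to 532712 at 6 d, 251639 to 487823 at 0 h), which overlapped. The scarcest, miR-208b-3p, overlapped too (9.02 to 28.0 at 6 d, 16.8 to 48.5 at 0 h). Higher at 6 d without overlap was miR-133a-3p (1751 to 2589, against 673.8 to 926.4 at 0 h). Lower without overlap were miR-208a-3p (47.6 to 139.4, against 162.5 to 261.1) and miR-499-5p (799 to 1284, against 1792 to 4044). Markers of some other cell types differed between the intervals without overlap, and those of others overlapped. The 3 erythroid markers summed to 57666 to 105053 at 6 d and 22959 to 30098 at 0 h, which came from miR-451a (45135 to 95485 at 6 d, 11544 to 15096 at 0 h), while miR-486a-5p (9560 to 12511 at 6 d, 11385 to 14971 at 0 h) and miR-144-3p (7.94 to 45.8 at 6 d, 29.3 to 44.5 at 0 h) overlapped. Of endothelium, the 2 markers summed to 25279 to 35076 at 6 d and 56921 to 88648 at 0 h, which came from miR-126a-3p, while miR-126a-5p overlapped. The 2 smooth muscle markers summed to 27916 to 90469 at 6 d, a range that holds the 75146 to 79578 at 0 h. The 4 leukocyte markers summed to 555 to 1026 at 6 d and 417 to 579 at 0 h and overlapped, and miR-206-3p of skeletal muscle was at 685 to 1440 at 6 d and 8.34 to 15.3 at 0 h. The 7 epithelial markers summed to 1408 to 2579 at 6 d and 139.4 to 439.4 at 0 h. Of these, miR-203-3p overlapped (93.9 to 246 at 6 d, 78.1 to 320 at 0 h), and each of the others was higher at 6 d without overlap. The liver marker miR-122-5p was at 2086 to 23460 at 6 d and 668 to 1406 at 0 h. One epithelial marker was at 0 in at least 1 of the 0 h libraries, and no other marker was at 0 in any library. The part of these differences, and of the lower depth at 6 d, in the levels described here was not tested. In tissue RNA, fewer cells of a type and less RNA per cell cannot be told apart.

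Over all 470 miRNAs that passed a filter of 1 normalised CPM in at least 3 libraries, 178 were called different between 6 d and 0 h by limma at an adjusted p under 0.05, which is 37.9%. Of these, 103 were lower at 6 d, or 21.9% of those tested. All 6 d libraries lay below all 0 h libraries for 30.9% of the tested miRNAs. The 5 picked arms are among the lower ones by their choice, and 9 of the 10 rows passed the filter, all but miR-149-3p. By size of the change the picked arms ranked 1, 3, 6, 9 and 18 among the 470, counting from the lowest log2 fold change. No cut-off value was given for the choice. Directly around the last of them stood miR-195a-3p with a log2 fold change of -2.64 and miR-411-3p with -2.55.

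The picked arm furthest from its 0 h level was miR-674-3p, from a precursor known in rodents. It had 9, 2 and 16 reads in the 6 d libraries, or 5.73, 2.65 and 14.4 normalised CPM, against 564, 1044 and 1471 reads in the 0 h libraries, or 137, 174 and 227 normalised CPM. Every 6 d library was far below every 0 h library, and 6 d replicate 2 was under its floor of 3 reads. The log2 fold change was -4.61 ± 0.52 (SE, n = 3 each), on the log2(normalised CPM + 1) scale used throughout. At the mean 0 h level the 6 d libraries would have held 282, 136 and 199 reads. Pooled over the libraries of each interval, the level was 23.6-fold lower at 6 d, with a 95% exact interval of 16.2 to 35.9 that covers counting error only. Most of the 6 d reads came from replicate 3, and the pooled level at 6 d was 0.0424 of that at 0 h with it and 0.0255 without it.

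For miR-139-5p, an arm described as a tumour suppressor in human cancers, the 6 d libraries held 26, 27 and 29 reads and the 0 h libraries 1317, 2557 and 3803. In normalised CPM these were 16.5, 35.7 and 26.2 at 6 d and 321, 425 and 587 at 0 h. The groups were far apart, with a highest-to-lowest ratio of 2.16 at 6 d and 1.83 at 0 h. The log2 fold change was -4.06 ± 0.38 (SE, n = 3 each). The pooled level was 19.4-fold lower at 6 d, with an exact interval of 15.6 to 24.4. Its 6 d libraries were the most even of the 5 arms.

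The scarcest of the picked arms was miR-455-3p, which is known for its part in cartilage formation. It had 3, 0 and 4 reads at 6 d and 89, 137 and 227 at 0 h, or 1.91, 0 and 3.61 normalised CPM at 6 d and 21.7, 22.8 and 35.1 at 0 h. The 0 h libraries were all above the 6 d ones, and 6 d replicate 2 had no read where the 0 h mean would have given 20.0. Its log2 fold change of -3.50 ± 0.57 (SE, n = 3 each) depends on the added pseudocount and was -2.21 with a pseudocount of 5. The pooled level was 13.4-fold lower at 6 d, with an exact interval of 6.45 to 33.5. The pooled level at 6 d over that at 0 h was 0.0747, and 0.0472 without 6 d replicate 3.

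For miR-340-3p, the less abundant arm of its precursor, the 6 d libraries held 22, 6 and 22 reads and the 0 h libraries 453, 685 and 1090. These were 14.0, 7.94 and 19.9 normalised CPM at 6 d and 110.3, 114 and 168 at 0 h. The highest 6 d library was far below the lowest 0 h library. Its log2 fold change was -3.20 ± 0.41 (SE, n = 3 each), and the pooled level was 9.22-fold lower at 6 d, with an exact interval of 6.97 to 12.5.

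The most abundant picked arm was miR-149-5p, which ranked 99 by level among all miRNAs at 6 d and 49 at 0 h. It had 170, 167 and 375 reads at 6 d, or 108, 221 and 338 normalised CPM. The 0 h libraries held 3677, 6944 and 10378 reads, or 895, 1155 and 1602 normalised CPM. The groups did not overlap, though the 6 d libraries differed by 3.13-fold among themselves. Its log2 fold change of -2.55 ± 0.45 (SE, n = 3 each) was the smallest of the 5, and the pooled level was 6.10-fold lower at 6 d, with an exact interval of 5.66 to 6.59.

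**Figure D1:**
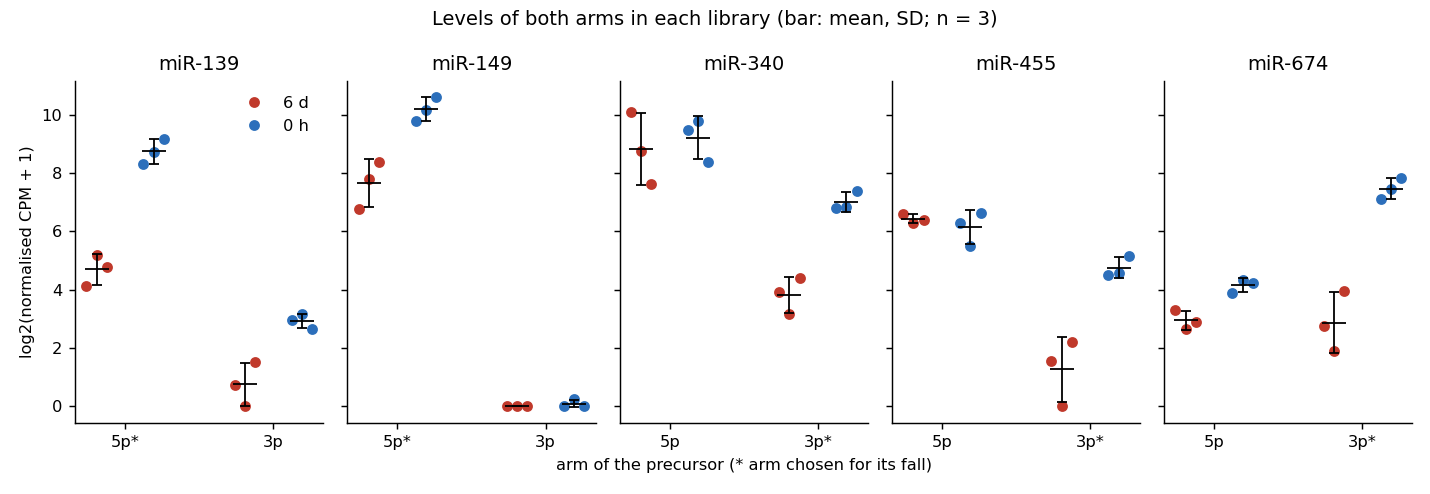
Level of each arm in each library as log2(normalised CPM + 1), 1 panel per precursor, with 6 d (red) left of 0 h (blue), 1 point per library, and the mean with its SD (n = 3) in black. In every panel the starred arm, picked for its fall, is lower at 6 d with no overlap, while the 5p arms of miR-340 and miR-455 overlap between the intervals.

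Among the picked arms the order of the levels differed between the intervals. At 6 d it was miR-149-5p, miR-139-5p, miR-340-3p, miR-674-3p and miR-455-3p, with means of 223 ± 115, 26.1 ± 9.59, 13.9 ± 5.96, 7.60 ± 6.11 and 1.84 ± 1.81 normalised CPM (SD, n = 3 each). At 0 h, miR-149-5p with 1218 ± 358 and miR-139-5p with 444 ± 134 again stood first, then miR-674-3p with 179 ± 45.2, miR-340-3p with 131 ± 32.5 and miR-455-3p with 26.5 ± 7.43. At 6 d the libraries of the neighbours miR-139-5p and miR-340-3p, miR-340-3p and miR-674-3p, and miR-674-3p and miR-455-3p overlapped. At 0 h only miR-674-3p and miR-340-3p did. All 5 picked arms were highest in 0 h replicate 3 within their group, and 4 of the 5 were highest in 6 d replicate 3 within theirs, miR-139-5p being highest in 6 d replicate 2.

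The partner arms differed among themselves. Of the 5, miR-149-3p did not pass the filter on low values, and miR-139-3p passed it only through the 0 h libraries, so that its call is no measure of a fall. The other 3 were above the filter in all 6 libraries, and 1 of them, miR-674-5p, was called lower and 0 higher, while 21.9% of all tested miRNAs were called lower. Of these 3, edgeR called 0 lower, with 1 at an unadjusted p under 0.05, where it called 19.6% of all it tested lower. With library totals alone limma called 0 of the 3 lower, with 0 at an unadjusted p under 0.05, where 8.47% of all were lower. With 3 arms these counts say little beside the shares over all miRNAs. They come from the same contrast and the same libraries as the picked arms and so are not independent of them.

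The partner of miR-139-5p, miR-139-3p, had 1, 0 and 2 reads at 6 d and 28, 47 and 34 at 0 h, or 0.637, 0 and 1.80 normalised CPM at 6 d and 6.82, 7.82 and 5.25 at 0 h. No 6 d library reached its floor of 3 reads, and 1 of them was above the filter value, against 3 at 0 h. Its log2 fold change was -2.18 ± 0.48 (SE, n = 3 each), with a limma adjusted p of 0.0069 that carries the selection by the 0 h level. In the fit with no filter, over all 984 rows, the limma adjusted p was 0.0097. By edgeR, after its own filter, the log2 fold change was -2.72 (adjusted p = 0.012). This p and those below from filtered fits carry the same selection by the 0 h level and are no measure of a fall. With a pseudocount of 5 the log2 fold change was -1.01 (limma adjusted p = 0.0048). With every library thinned to 617069 reads, which left 1, 0 and 2 reads at 6 d and 4, 3 and 4 at 0 h, the log2 fold change was -1.70 and the threshold was missed (limma adjusted p = 0.088). Over all alternatives and the omission of each library, the adjusted p ranged between 0.0025 and 0.088. Pooling the reads gave a 6 d to 0 h ratio of 0.133 (95% exact interval 0.0270 to 0.399), and 0.0654 without 6 d replicate 3. Both arms together, of which nearly all reads are of the picked one, had a level of 27.0 ± 9.32 normalised CPM at 6 d and 451 ± 133 at 0 h (SD, n = 3 each).

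The partner of miR-674-3p, miR-674-5p, had 14, 4 and 7 reads at 6 d and 56, 115 and 115 at 0 h. In normalised CPM these were 8.91, 5.29 and 6.32 at 6 d and 13.6, 19.1 and 17.8 at 0 h, with no overlap. It fell at 6 d, with a log2 fold change of -1.20 ± 0.39 (SE, n = 3 each, limma adjusted p = 0.034). The call was lost by edgeR (log2 fold change -1.13, adjusted p = 0.072), by DESeq2 (adjusted p = 0.13), with RLE size factors (limma adjusted p = 0.066), with no filter (limma adjusted p = 0.085), with library totals alone (-0.78, limma adjusted p = 0.27), after thinning (-0.47, limma adjusted p = 0.55) and with the replicate number as a block (limma adjusted p = 0.051). Leaving out any single library other than 6 d replicate 1 ended it too, with a limma adjusted p of 0.078 without 6 d replicate 2, 0.051 without 6 d replicate 3, 0.073 without 0 h replicate 1, 0.13 without 0 h replicate 2 and 0.10 without 0 h replicate 3. Over all alternatives the adjusted p ranged between 0.023 and 0.55. The lowest came with a filter of 10, which this arm passed only through the 0 h libraries.

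The partner of miR-340-3p, miR-340-5p, is an arm reported to promote cardiac hypertrophy in mice. It had 1732, 330 and 221 reads at 6 d and 2991, 5428 and 2153 at 0 h. Its levels were 1103, 437 and 199 normalised CPM at 6 d and 728, 903 and 332 at 0 h, so the groups overlapped and 6 d replicate 1 was the highest of all 6 libraries. The log2 fold change of -0.39 ± 0.61 (SE, n = 3 each) did not pass the threshold (limma, adjusted p of 0.66), and its sign changed with the scaling, being 0.064 with library totals alone. The pooled level at 6 d over that at 0 h was 1.04, and 0.464 without 6 d replicate 1.

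The partner of miR-455-3p, miR-455-5p, lay at like levels at both intervals. It had 152, 59 and 93 reads at 6 d and 320, 265 and 636 at 0 h, or 96.7, 78.1 and 83.9 normalised CPM at 6 d and 77.9, 44.1 and 98.2 at 0 h. All 6 d libraries lay within the range of the 0 h ones. The log2 fold change of 0.30 ± 0.37 (SE, n = 3 each) did not pass the threshold (limma, adjusted p of 0.55). It was -0.026 without 0 h replicate 2. Over the alternatives its log2 fold change stayed between -0.026 and 0.75.

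The partner of miR-149-5p, miR-149-3p, had 1 read in all, in 0 h replicate 2, and none in the other 5 libraries. It is under the floor of 3 reads everywhere, so nothing can be said of its change.

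**Figure D2:**
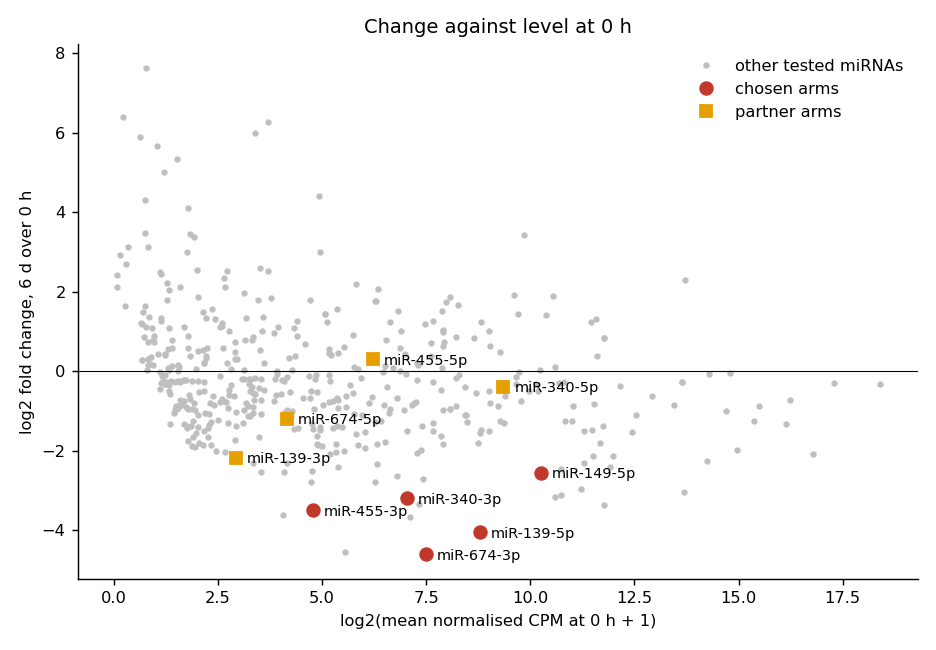
Log2 fold change of 6 d over 0 h against the level at 0 h, as log2(mean normalised CPM + 1), for the 470 tested miRNAs, with the picked arms as red circles and the tested partner arms as orange squares. The picked arms lie between -4.61 and -2.55 at intermediate to high levels, and miR-455-5p (0.30) and miR-340-5p (-0.39) lie near 0.

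The share of a precursor's reads that come from the 3p arm does not depend on how a library is scaled. It includes the picked arm, so its change is described and not tested. For miR-674 the 3p arm made up 39.1%, 33.3% and 69.6% of the reads of both arms in the 6 d libraries and 91.0%, 90.1% and 92.7% in the 0 h libraries. The precursor had only 23, 6 and 23 reads at 6 d, so the 95% exact (Clopper-Pearson) intervals there were wide, 19.7% to 61.5%, 4.33% to 77.7% and 47.1% to 86.8%. None of them reached 88.2%, the lowest bound at 0 h. All 3 intervals at 6 d include equal shares of both arms, while at 0 h the 3p arm dominated in every library.

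For miR-455 the 3p share was 1.94%, 0% and 4.12% at 6 d and 21.8%, 34.1% and 26.3% at 0 h. With 59 reads of both arms, the 0% of 6 d replicate 2 has an exact upper bound of 6.06%, below the lowest bound of 17.9% at 0 h. The groups were well separated, and the level of both arms together was 88.1 ± 10.3 normalised CPM at 6 d and 99.9 ± 33.2 at 0 h (SD, n = 3 each). The summed levels overlapped between the intervals, and the reads at 6 d came almost entirely from the 5p arm.

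For miR-340 the 3p share was 1.25%, 1.79% and 9.05% at 6 d and 13.2%, 11.2% and 33.6% at 0 h. The highest 6 d library and the lowest 0 h library were close, with exact intervals of 5.76% to 13.4% and 10.4% to 12.0% that overlap. Within each interval replicate 3 stood apart from the other libraries, with exact intervals that did not meet theirs. At 0 h, replicate 3 had the lowest level of miR-340-5p and the highest of miR-340-3p. The level of both arms together was 594 ± 467 normalised CPM at 6 d and 785 ± 262 at 0 h (SD, n = 3 each).

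For miR-139 the 3p share was 3.70%, 0% and 6.45% at 6 d and 2.08%, 1.80% and 0.886% at 0 h, and the exact intervals of the 6 d libraries, from 27 to 31 reads each, all included each of the 0 h shares. A shift between the arms of miR-139 was not detectable at this depth.

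On the log2 scale with 1 read added to each arm, the ratio of 5p to 3p reads was higher at 6 d by 3.71 for miR-455, 3.46 for miR-674 and 2.79 for miR-340, and was lower by 2.04, a change of -2.04, for miR-139. Over the 116 precursors with both arms tested the median size of this change was 1.26, and miR-455, miR-674, miR-340 and miR-139 ranked 7, 10, 19 and 35 by size. With 5 reads added the changes were 2.41, 3.32, 2.45 and -3.41. The value for miR-139 rests on 3 reads of its 3p arm at 6 d.

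**Figure D3:**
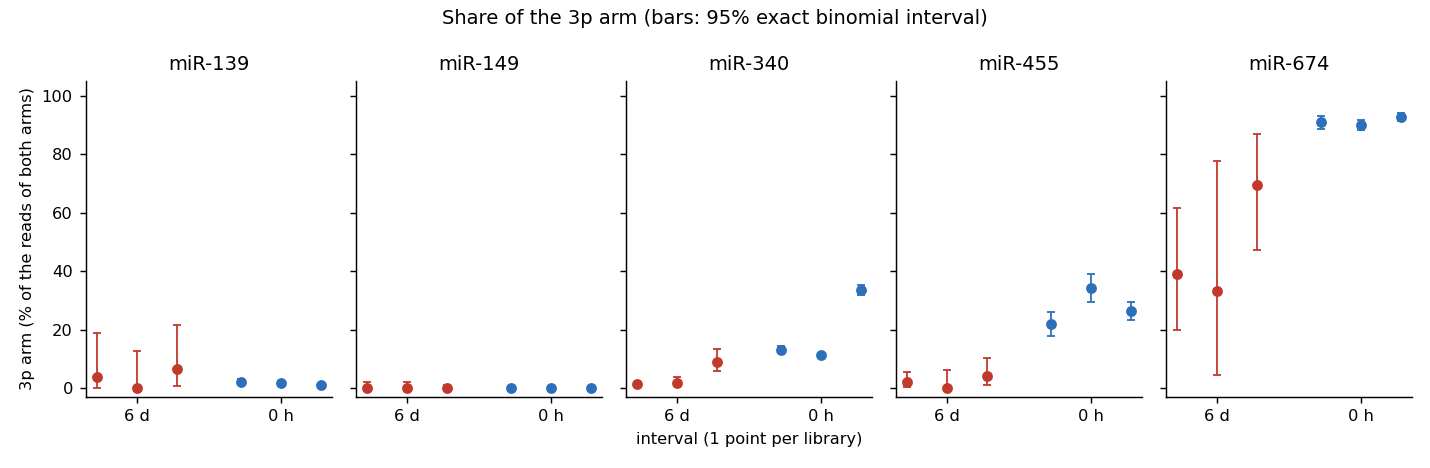
Share of the 3p arm among the reads of both arms, in percent, for each precursor and library, with 6 d (red) left of 0 h (blue) and bars for the 95% exact binomial interval, which covers counting error only. The 3p share is lower at 6 d in every library of miR-455 and miR-674, and the 6 d intervals of miR-139 include all 0 h shares.

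Depth differed between the intervals, so all libraries were also thinned to 617069 reads. Then miR-149-5p had 47, 152 and 375 reads at 6 d and 522, 486 and 848 at 0 h, and miR-139-5p had 10, 24 and 29 at 6 d and 184, 199 and 297 at 0 h. For miR-340-3p there were 8, 6 and 22 reads at 6 d and 72, 48 and 102 at 0 h, and for miR-674-3p 2, 2 and 16 at 6 d and 87, 98 and 120 at 0 h. The scarcest arm, miR-455-3p, had 1, 0 and 4 reads at 6 d and 16, 5 and 17 at 0 h. For each of the 5 arms the 6 d libraries stayed below the 0 h ones at equal depth. The partner arms miR-340-5p (599, 295 and 221 reads at 6 d, 415, 411 and 153 at 0 h) and miR-455-5p (54, 52 and 93 at 6 d, 53, 20 and 57 at 0 h) overlapped. The scaling also moved the median of all miRNAs. Over all tested miRNAs the log2 fold change had a median of -0.33 as deposited, 0.022 with library totals alone and 0.12 after thinning. The median of the picked arms was -3.50, -3.10 and -2.92 in these settings, which is -3.17, -3.13 and -3.04 relative to the median of all.

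Few other measured miRNAs carry a seed of these 10 arms, and those that do match partner arms, not picked ones. The seed of miR-149-3p occurs in miR-1943-5p (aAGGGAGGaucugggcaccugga), which had 10, 8 and 6 reads at 6 d and 45, 100 and 39 at 0 h, with a log2 fold change of -0.48 ± 0.47 that did not pass the threshold (SE, n = 3 each, limma adjusted p = 0.44). It also occurs in miR-6967-5p, with 1 read in all. The seed of miR-455-5p occurs in miR-5129-3p (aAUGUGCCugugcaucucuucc), with 2, 1 and 0 reads at 6 d and 4, 11 and 11 at 0 h (log2 fold change -0.50, limma adjusted p = 0.41), and that of miR-674-5p in miR-3473d, with 1 read in all. Among the 851 of the 984 measured names that were matched in the RefSeq table, none shares the seed of a picked arm.

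In base composition each picked arm held more cytosine than the median miRNA. It made up 43.5% of miR-149-5p, 40.9% of miR-674-3p, 33.3% of miR-455-3p, 31.8% of miR-139-5p and 27.3% of miR-340-3p, against a median of 22.7% over the 407 tested miRNAs with a RefSeq sequence. Of these 407, 96.3% held less than miR-149-5p, 93.6% less than miR-674-3p and 81.6% less than miR-455-3p. Only 77.1% held less than miR-139-5p and 63.9% less than miR-340-3p. The partner arms held 9.09% to 22.7%, so on this measure the picked arms and their partners do not overlap. The sequences were known when cytosine was singled out from GC, pyrimidine and guanine content and length. The arms of a hairpin are also not independent sequences, so this separation is not a result. Across the 398 of these miRNAs that are not arms of the 5 precursors, Spearman's rho between cytosine content and log2 fold change was -0.13. For GC content it was -0.15. Both are weak relations given as a description, since miRNAs of the same libraries are not independent. Of the 100 with the most cytosine, 29 were called lower and 16 higher. Of the 99 ranked just below them, at 22.7% to 28.6%, 30 were called lower and 16 higher. The next 99, at 17.4% to 22.7%, had 15 lower and 19 higher, and the 100 with the least had 10 and 18. In that order the median log2 fold changes were -0.32, -0.36, -0.22 and -0.21. Neighbouring groups share the edge values of 28.6%, 22.7% and 17.4%, so miRNAs of equal cytosine content were split between them. The step from 30 to 15 lower calls lies at the shared value of 22.7%. Lower calls were thus more frequent in the groups with more cytosine (29 and 30) than in those with less (15 and 10). The 100 with the most cytosine did not exceed the 99 just below them on either measure. Over all 470 tested miRNAs, 21.9% were called lower and 16% higher.

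**Figure D4:**
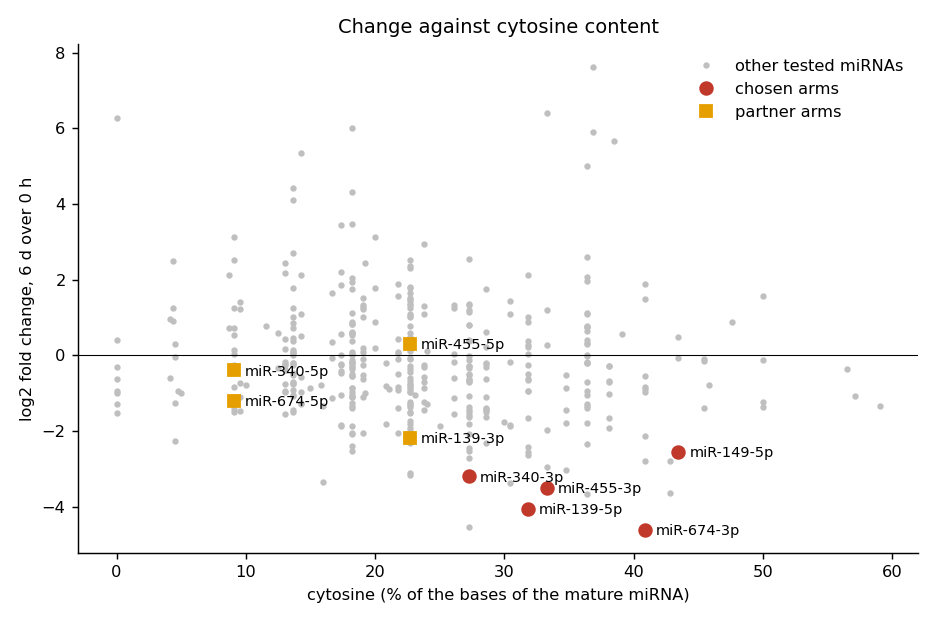
Log2 fold change of 6 d over 0 h against the cytosine content of the mature miRNA, in percent of its bases, for 407 tested miRNAs, with picked arms as red circles and tested partner arms as orange squares. The picked arms lie at 27.3% to 43.5% and the partner arms at 9.09% to 22.7%, while the other miRNAs lie on both sides of 0.

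The short motifs CUCC and UCUC, searched on the mature RNA strand only, were chosen from the sequences of the picked arms, so their presence there is not a result. CUCC is in miR-139-5p, miR-149-5p and miR-674-3p and UCUC in miR-139-5p, where they overlap, and in miR-340-3p and miR-674-3p, while no partner arm holds either. Of the 407 tested miRNAs with a sequence, 11.3% hold CUCC, 7.62% hold UCUC and 15.5% hold at least one. Of the 59 others that hold at least one, 14 were called lower (23.7%) with a median log2 fold change of -0.34, and of the 339 that hold none, 70 were called lower (20.6%) with a median of -0.26. The shares were close to each other.

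The location in an intron, which 4 of the 5 precursors share, was looked at in a list of miRNAs with known protein-coding host genes. Of 43 listed precursor names with a RefSeq locus, 41 lay inside the named host on its strand in the annotation, and miR-191 and miR-425 did not. Without the arms described above and without the arms of miR-191 and miR-425, 57 rows of the list were tested, of which 12 were called lower (21.1%) and 11 higher, and their median log2 fold change was -0.55, beside 21.9% called lower and a median of -0.33 over all 470 miRNAs. The share of these rows called lower was near that of all miRNAs. The 5 most abundant called members of the list went in both directions. The log2 fold change of miR-26a-5p, which is encoded in phosphatase genes of the Ctdsp family, was -1.25 ± 0.34 (SE, n = 3 each, limma adjusted p = 0.017), with 18524 ± 6821 normalised CPM at 6 d and 42268 ± 3476 at 0 h. Its call was lost with library totals alone (limma adjusted p = 0.17), after thinning (0.064) and without 0 h replicate 1 (0.061) or 0 h replicate 3 (0.052). Also lower were miR-126a-3p of Egfl7 (-1.33), miR-191-5p (-3.37), one of those outside its named host, and miR-499-5p of Myh7b (-1.48), with limma adjusted p of 0.0095, 0.00047 and 0.013, and the calls of miR-126a-3p and miR-499-5p were lost with library totals alone (limma adjusted p of 0.11 for both). Higher was miR-25-3p of Mcm7 (1.32, limma adjusted p = 0.0076).

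The miRNAs whose pattern over the 6 libraries came nearest to a picked arm, the arms of the 5 precursors left out, were found by the mean absolute difference between log2 levels, each row centred on its own mean. This likeness is dominated by the difference between the intervals and is a description. For miR-139-5p they were miR-671-3p (0.32) and miR-1964-3p (0.32), and for miR-149-5p miR-433-3p (0.19) and miR-504-5p (0.23). For both miR-340-3p and miR-455-3p they were miR-125a-5p (0.24 and 0.35) and miR-30c-5p (0.25 and 0.44), and for miR-674-3p miR-543-3p (0.43) and miR-1964-3p (0.56). Of these, miR-671-3p had 0, 1.32 and 0 normalised CPM at 6 d and 13.6, 12.6 and 21.0 at 0 h, and miR-125a-5p had 278, 175 and 595 at 6 d and 2254, 2672 and 2267 at 0 h. Among the picked arms themselves miR-340-3p and miR-455-3p were closest (0.25), which for miR-455-3p is nearer than miR-125a-5p, miR-455-3p and miR-674-3p stood at 0.55, and miR-149-5p and miR-674-3p furthest apart (1.03).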

How the data were processed

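Small RNA libraries of mouse myocardium were, per the labels' protocols, made with a NEBNext kit from RNA harvested in Trizol. The submitters' processing notes name STAR 2.5.3a, cutadapt 2.8, Trimmomatic 0.39 and FastQC without their roles. Which tool counted the reads, with which annotation and build, is not given in the sources used here. For 0 h replicate 1 the authors deposited raw counts. For the other 5 libraries they deposited log2 values, and log2(x + 1) was undone. Each value x was a whole multiple of 1 step per library, the value of 1 read, within 0.0005 on the log2 scale, for 2692 of the 2692 values where rounding allowed the check, of 3110 nonzero values. The step was estimated from the same values. The counts of 0 h replicate 1 were put on this scale with a factor of 0.919, derived by taking the product of the 6 library factors as 1, which the authors do not state.

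The main test was limma 3.58.1 (trend, robust) on log2(normalised CPM + 1) over the 470 miRNAs that reached 1 normalised CPM in 3 or more libraries, with Benjamini-Hochberg adjustment over all 470. Alternatives were edgeR 4.0.16 and DESeq2 1.42.0 on the recovered reads, other scalings, pseudocounts and filters, thinning to the smallest library, omission of each library and a replicate block. The design had foreseen 1 unit for all files, and the files held 2. Arms were paired by name. Only the limma call was run on simulated counts, with known folds in both directions, the same dispersion at both intervals and recomputed scale factors. The recovery of reads, the deposited scaling, the arm shares and the pooled ratios were not checked in this way. Without molecular identifiers, exact intervals and floors cover only the counting error. Sequences and coordinates come from RefSeq (GRCm38.p6) and host genes from GENCODE vM21 on GRCm38, matched by miRNA name. The miRNAs, lists and motifs were chosen with earlier results of these data or the sequences known. Named miRNAs were all arms of the 5 precursors, all measured miRNAs with the same seed, the 5 most abundant called intronic miRNAs and the 2 most alike miRNAs per picked arm. miR-195a-3p and miR-411-3p were named after their values were seen.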

Additional observations from a re-analysis of the deposited data

How the results depend on the processing

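The median log2 fold change of the picked arms stayed between -3.98 and -2.87 in the 17 alternatives run, and each picked arm stayed lower at 6 d in all of them. With 1 library left out, 114 to 179 miRNAs were called, against 178, and 58 to 108 were called lower, the lowest counts being 114 and 58 without 0 h replicate 1 and 126 and 68 without 0 h replicate 2, while 40 were called lower with library totals alone and 46 after thinning, against 103. The cause was not tested. Partner arms called lower numbered 2 in the main fit, a count that holds miR-139-3p, which passed the filter only through the 0 h libraries. Of the 3 partners above that filter in all libraries, 1 was called lower, with 103 of 470 over all. It was 0 with no filter (88 of 984 over all), library totals alone (40 of 472), RLE size factors (84 of 468) and thinning (46 of 473). By edgeR (71 of 363), DESeq2 (74 of 507) and the replicate block (116 of 470) it was 0 too. With a filter of 10 it was 1 (88 of 276). With 1 library left out it was 1 without 6 d replicate 1 (107 of 447) and otherwise 0 (58 of 443 to 108 of 444). With the filter of 10, miR-139-3p was not among the tested, and miR-674-5p passed only through the 0 h libraries. Of the partner arms, 1 was lower after thinning at an unadjusted limma p under 0.05, namely miR-139-3p. It had 1, 0 and 2 thinned reads at 6 d. Its p carries the selection by the 0 h level and is no measure of a fall. Of the whole intronic list, which holds 5 of the lower-called arms of the 5 precursors, 19 were called lower, 11 with library totals alone, 11 after thinning and 14 to 22 when 1 library was left out. Without those precursors and miR-191 and miR-425, a choice made after seeing the data, 12 of 57 were called lower. The count was 5 with library totals alone and 6 after thinning. It was 8 (without 0 h replicate 1) to 15 (without 6 d replicate 1) when 1 library was left out. In the same order of settings, 103 of 470, 40 of 472, 46 of 473, 58 of 443 and 107 of 447 were called lower over all tested miRNAs. The counts of the list thus moved in the same direction as those over all miRNAs. The replicate block called 195 miRNAs. Libraries with the same number had deviations from their group means that correlated at r of 0.068, 0.064 and 0.27, not all above 0.1, and the highest r of 0 h replicate 1 was with another number, 6 d replicate 2 (0.16). The numbers were therefore treated as names.

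Some uncalled log2 fold changes changed sign. That of miR-340-5p was 0.064 with library totals alone, 0.018 with DESeq2 and 0.13 after thinning, and ranged from -1.03 to 0.20 with 1 library left out. That of miR-455-5p ranged from -0.026 to 0.54 with 1 library left out, and that of miR-5129-3p was 0.50 after thinning. Depth limits miR-149-3p, miR-139-3p, miR-455-3p, miR-674-5p and miR-674-3p, with 0, 3, 7, 25 and 27 reads in all at 6 d.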
